A study of Homo sapiens with 16 samples.

Results

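The transcripts described here are those that stood on the same side of the control in every one of 5 small interfering RNA (siRNA) knockdowns in U2OS cells, a human osteosarcoma line. The 12 of the 16 samples in the series that hold this comparison are RNA-seq libraries, 2 for each of 6 siRNAs. A gene was taken as one-sided where all 10 knockdown libraries lay above both control libraries, or all 10 below both. Of 8808 genes in the deposited table, 1221 met this rule (13.9%), 576 of them above (6.54%) and 645 below (7.32%). The control siRNA was directed at luciferase (siLuc; its label adds the name DOYYA). The siRNAs against MRG15 (gene MORF4L1), MRGX (MORF4L2), MRGBP and TIP60 (KAT5) were smartpools, mixtures of several siRNAs to 1 gene, and that against BRD8 was a single catalogue siRNA. All groups were wild-type U2OS cells as far as the labels say, grown in DMEM with 10% FBS, and the RNA was of the poly(A) kind. The other 4 samples, chromatin immunoprecipitations from K562 cells, were not analysed here.

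TIP60 is the lysine acetyltransferase of a large chromatin complex that acetylates histones and exchanges histone variants at promoters. BRD8 and MRGBP are subunits of that complex, and the paralogues MRG15 and MRGX bind MRGBP. Both MRG proteins also occur in deacetylase complexes of the SIN3 type, and MRG15 carries a chromodomain that recognises methylated histone tails. U2OS cells keep a wild-type p53 gene, whose targets include regulators of the cell cycle and of apoptosis.

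Levels are in CPM, read counts scaled to library size by the authors. A change is the mean of log2(CPM + 1) in a knockdown minus that in siLuc, and the average change gives the 5 knockdowns equal weight; both are printed with a standard error (SE) from limma, n = 2 libraries per group. This scale understates the change of genes at low levels. The 5 knockdowns share the same 2 control libraries, and no untreated cells were among the groups, so a change common to all knockdowns and a property of the siLuc libraries cannot be told apart. The siLuc replicates differed from each other more than those of any other group by chi-square per degree of freedom (52.6, against 4.72 to 27.8), and their median gap was 0.12 on the log2 scale (0.05 to 0.13 in the other groups). Whether replicates were separate cultures is not given, so the p-values rest on a spread between libraries that may be technical. Effective library sizes ranged from 57255783 to 110402095 reads, of which 30.4 to 38.2% fell in the listed genes. The table is headed as one of significant differential expression, and every count is among its genes. If they were chosen for differing between these same libraries, that choice raises the shares passing a test and makes the p-values too small.

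The average of the 5 knockdowns differed from siLuc in 5733 genes by limma at an adjusted p under 0.05 (65.1% of 8808), with 2721 higher (30.9%) and 3012 lower (34.2%). Of these, 141 rose and 135 fell 2-fold or more. The SE of an average contains only the spread between replicates, so an average can pass on the strength of 1 or 2 knockdowns. The one-sided rule asks for more: its genes made up 21.2% of the higher calls and 21.4% of the lower calls. All 576 genes above and 644 of the 645 below also passed the average test, which uses the same libraries as the rule and is no further evidence. The remaining higher and lower calls had at least 1 knockdown library level with or beyond a control library.

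**Figure D1:**
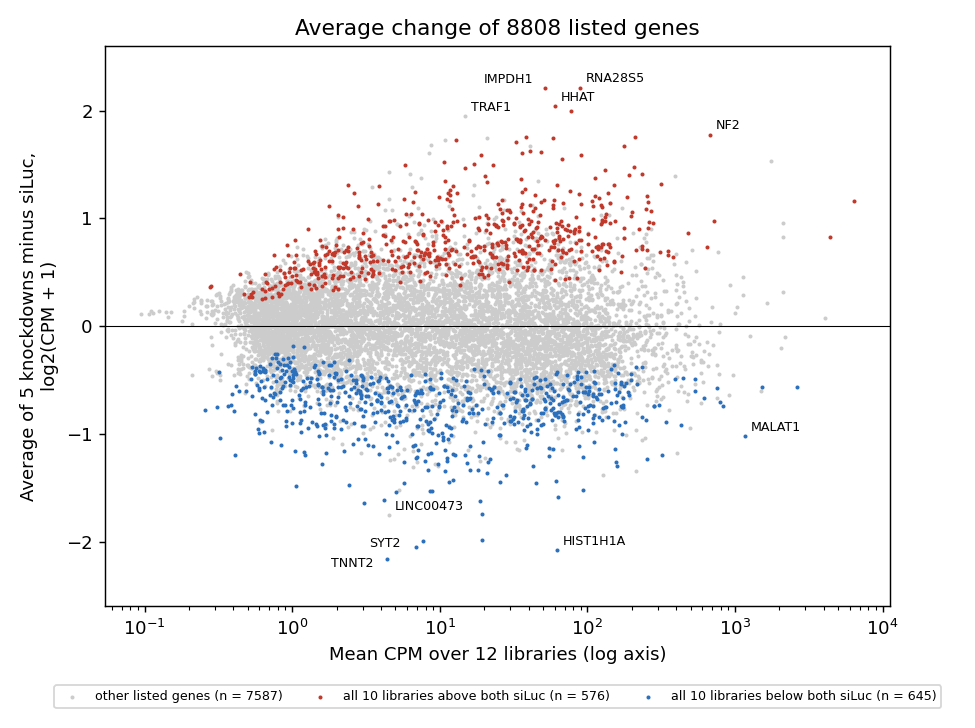
Average change of the 5 knockdowns against siLuc, on the log2(CPM + 1) scale, for each of 8808 genes (points) against its mean CPM over 12 libraries on a log axis. The 576 genes with all 10 libraries above both siLuc libraries are red, the 645 below are blue, and the named genes IMPDH1 and TNNT2 lie at opposite ends with averages of 2.21 and -2.17.

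The shared response was modest in size for most members. Among the genes above, the average change had a median of 0.72 (quartiles 0.57 and 0.94) and reached 2.21; among those below the median was -0.70 (quartiles -0.88 and -0.56) and the lowest -2.17. The change in the knockdown where a gene moved least had a median of 0.32 above and -0.27 below. At least 1.5-fold in every knockdown was reached by 100 genes above (1.14% of those listed) and 68 below (0.772%), and at least 2-fold by 19 (0.216%) and 8 (0.0908%). These sizes follow from the rule and carry no test.

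The knockdowns did not contribute equally. Genes above had a median change of 0.98 in siTIP60, against 0.67 in siMRG15, 0.69 in siMRGX, 0.69 in siMRGBP and 0.63 in siBRD8. Genes below had medians of -0.87 in siTIP60, -0.71 in siMRGX, -0.65 in siMRGBP, -0.55 in siMRG15 and -0.51 in siBRD8. The strongest change lay in siTIP60 for 244 of 576 genes above and 249 of 645 below, and in siBRD8 for 36 and 38. Among all listed genes the calls of each knockdown against siLuc were 33.5% higher and 35.8% lower for siMRG15, 28.2% and 40.0% for siMRGX, 32.1% and 32.9% for siMRGBP, 28.3% and 25.9% for siBRD8, and 41.1% and 37.7% for siTIP60. Being one-sided did not mean being equal. Differences among the 5 knockdowns were tested by limma's F test, a comparison that leaves siLuc out of the contrast. They passed in 567 of the genes above (98.4%) and 612 of those below (94.9%), beside 97.6% of all listed genes. The choice of the deposited genes may itself raise these shares. The 5 changes lay within 1.5-fold of each other in 116 genes above (20.1%) and 131 below (20.3%), and in 769 of all listed genes (8.73%). The rule itself favours genes whose changes lie close together.

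**Figure D2:**
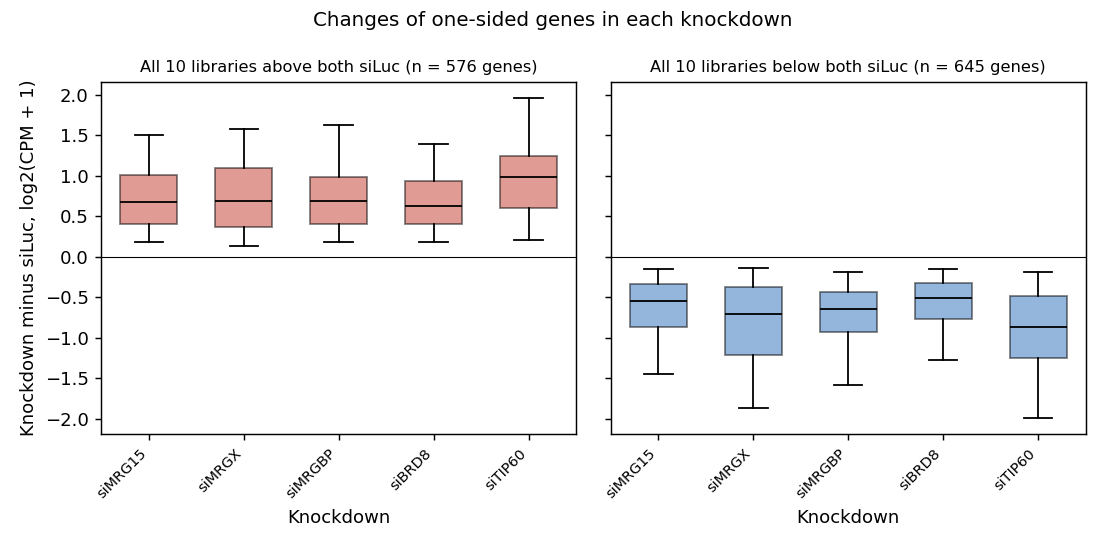
Change in each knockdown against siLuc on the log2(CPM + 1) scale for the 576 genes above (left) and the 645 below (right). Boxes span the quartiles with the median as a line, and whiskers reach the 5th and 95th percentiles over genes; siTIP60 has the medians farthest from 0, 0.98 and -0.87.

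The 12 named genes above are those with the largest weakest change, and they include several metabolic enzymes and signalling proteins. IMPDH1, IMP dehydrogenase, catalyses the rate-limiting step of guanine nucleotide synthesis. It stood at 12.3 and 11.6 CPM in siLuc and at 48.9 and 54.6 in siMRG15, 65.7 and 68.8 in siMRGX, 73.5 and 68.6 in siMRGBP, 63.2 and 62.5 in siBRD8 and 45.3 and 44.5 in siTIP60. Every knockdown library was thus far above the control, highest in siMRGBP and lowest in siTIP60, and the average change was 2.21 ± 0.05. HHAT, the acyltransferase that attaches palmitate to Hedgehog ligands, followed. Its level was 13.1 and 14.4 CPM in siLuc, and 45.9 and 49.4 in siMRG15, 47.2 and 45.3 in siMRGX, 46.1 and 51.3 in siMRGBP, 42.7 and 43.2 in siBRD8 and 157 and 168 in siTIP60. The other knockdowns were close to each other while siTIP60 stood well above them (change 3.47 ± 0.07, against 1.58 to 1.75; limma F test adjusted p = 2.10e-10).

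Promoters of IMPDH1 and HHAT are shown as the leading genes of the raised side, from RefSeq on GRCh38.p14, each 300 bases from 250 before to 50 after the annotated start, 5′ to 3′ on the gene's strand. IMPDH1 lies at chr7:128409933-128410232, minus strand, and HHAT at chr1:210328002-210328301, plus strand, the first of 3 entries for that gene. Capitals mark matches, on either strand, to 7 motifs: GGGCGG for the GC box, CCAAT for the CCAAT box, TATAAA for the TATA box, CACGTG for the E-box, CCGGAA for the core of ETS factor sites, TGANTCA for AP-1 and TGACG for the core of the cyclic AMP response element.
IMPDH1: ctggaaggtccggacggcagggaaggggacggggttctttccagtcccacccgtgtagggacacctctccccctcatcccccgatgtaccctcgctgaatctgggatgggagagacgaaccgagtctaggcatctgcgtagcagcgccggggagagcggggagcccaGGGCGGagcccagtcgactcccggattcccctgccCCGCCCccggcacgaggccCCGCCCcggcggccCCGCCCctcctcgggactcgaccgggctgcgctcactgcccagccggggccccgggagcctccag
HHAT: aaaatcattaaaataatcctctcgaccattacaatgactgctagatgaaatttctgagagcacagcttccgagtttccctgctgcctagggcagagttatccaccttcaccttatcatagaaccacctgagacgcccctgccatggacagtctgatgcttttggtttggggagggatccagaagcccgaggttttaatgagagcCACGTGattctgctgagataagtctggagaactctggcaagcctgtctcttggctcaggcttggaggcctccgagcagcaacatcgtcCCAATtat
The IMPDH1 window held 4 GC boxes, and that of HHAT 1 E-box and 1 CCAAT box. Among all 27305 RefSeq promoters of the same length, 44.6% held a GC box, 35.7% a CCAAT box, 11.95% TATAAA, 7.43% the E-box, 17.6% the ETS core, 7.76% the AP-1 site and 25.01% the TGACG core. A match is a description of the sequence and no evidence of binding. Promoter entries were matched for 63.2% of the genes above and 69.5% of those below, too few for a comparison of promoters over the members, so none is given.

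NF2 encodes merlin, a tumour suppressor upstream of the Hippo pathway, and was among the most evenly raised genes. Its level was 225 and 221 CPM in siLuc and 813 and 874 in siMRG15, 817 and 844 in siMRGX, 686 and 738 in siMRGBP, 659.6 and 653 in siBRD8 and 809 and 825 in siTIP60. All 10 libraries lay between 653 and 874 CPM, about the same distance from a control whose replicates almost coincided (average change 1.78 ± 0.05). MET, the receptor tyrosine kinase for hepatocyte growth factor, behaved less evenly. It was at 60.03 and 62.2 CPM in siLuc, and at 165 and 185 in siMRG15, 218 and 223 in siMRGX, 233 and 226 in siMRGBP, 142 and 142 in siBRD8 and 225 and 247 in siTIP60. The siBRD8 libraries were the lowest of the knockdowns and siTIP60 replicate 2 the highest, and the average change was 1.67 ± 0.05 (limma F test among knockdowns, adjusted p = 7.47e-07).

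Second-messenger and small-GTPase signalling gave 4 of the 12. ADCY9, an adenylate cyclase that makes cyclic AMP, had 6.24 and 6.62 CPM in siLuc and a lowest, median and highest of 17.7, 20.7 and 26.5 CPM over the knockdown libraries (1.59 ± 0.05). INPP5A, a phosphatase that removes the signal of inositol trisphosphate, had 11.48 and 9.46 against 26.6, 38.2 and 47.3 CPM (1.71 ± 0.06). The order of the knockdowns differed between this pair: siMRG15 and siMRGX led for ADCY9 (1.83 and 1.82), siBRD8 and siMRGBP for INPP5A (2.08 and 1.97). GNA12, the alpha subunit of a heterotrimeric G protein that acts on RhoA, had 77.5 and 87.4 against 180.4, 227 and 282 CPM (1.47 ± 0.05). CDC42SE2, a small effector of the GTPase CDC42, had 12.8 and 14.8 against 31.2, 42.7 and 64.8 CPM (1.63 ± 0.05). For CDC42SE2 the 2 siMRG15 libraries were the lowest and siBRD8 the highest of the knockdowns, and none reached down to siLuc.

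RPIA and ADA are enzymes of sugar phosphate and purine metabolism. RPIA, ribose-5-phosphate isomerase of the pentose phosphate pathway, had 11.95 and 13.1 CPM in siLuc against a lowest, median and highest of 31.3, 41.4 and 49.97 CPM (1.60 ± 0.05). ADA, adenosine deaminase, had 7.84 and 8.005 against 18.8, 22.98 and 28.1 CPM (1.40 ± 0.05), lowest in siMRGBP and highest in siTIP60. DNAJC8, a J-domain co-chaperone, had unequal controls (45.9 and 36.4 CPM) and 84.1, 93.1 and 121 CPM in the knockdowns (1.22 ± 0.08). TMEM8A, a transmembrane protein, was the most even of the 12, with 66.4 and 61.3 CPM in siLuc and 144 to 164 CPM in the 10 others; its 5 changes lay between 1.16 and 1.30. Each of these genes was raised in all 10 libraries with a clear gap to both controls. SEPT8, a septin GTPase, stands outside these 12 because its name is 1 of 15 that the deposited table pads with a space, and 1 set of values there is listed under both SEPT2 and SEPT9. Its weakest change, 1.55, was the third in size among the genes above. The row named SEPT8 had 20.5 and 21.7 CPM in siLuc, 84.4 and 87.6 in siMRG15, 92.01 and 92.95 in siMRGX, 91.3 and 88.3 in siMRGBP, 62.9 and 64.5 in siBRD8, and 107 and 109 in siTIP60 (1.99 ± 0.04).

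**Figure D3:**
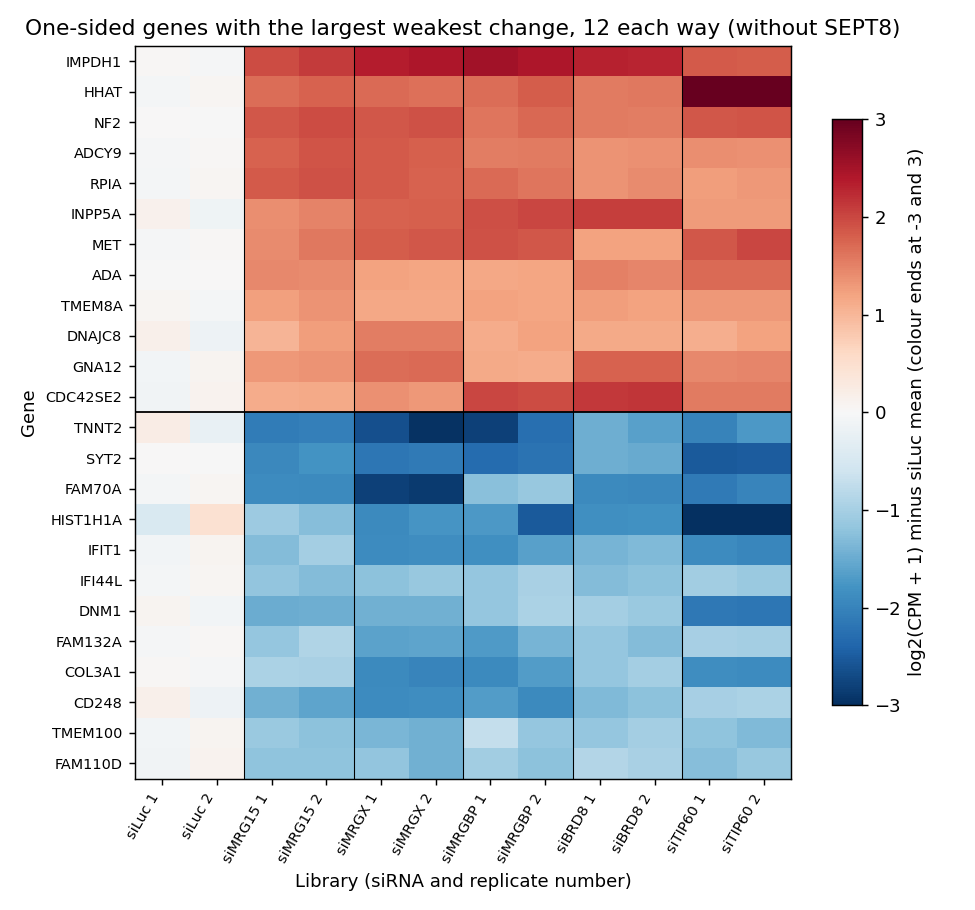
Level in each library minus the siLuc mean, on the log2(CPM + 1) scale, for the 12 leading genes above other than SEPT8 (upper rows) and the 12 below (lower rows), ordered by the change in the knockdown where each moved least. Columns are the 12 libraries; the siLuc columns are near 0 except HIST1H1A, whose controls differ, and siTIP60 is darkest for HHAT and HIST1H1A.

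On the lowered side the 12 named genes include those of a muscle protein, a linker histone, proteins of vesicle traffic, interferon-induced proteins and secreted or membrane proteins. TNNT2, cardiac troponin T of the thin filament, led by average change. It stood at 16.2 and 11.7 CPM in siLuc and at 2.46 and 2.57 in siMRG15, 1.36 and 0.895 in siMRGX, 1.12 and 2.06 in siMRGBP, 4.34 and 3.78 in siBRD8 and 2.702 and 3.46 in siTIP60. Both controls were well above all others; siMRGX replicate 2 was lowest and siBRD8 the least lowered, with an average change of -2.17 ± 0.14. SYT2, synaptotagmin 2, is a calcium sensor of vesicle fusion. Its siLuc values coincided at 20.04 and 20 CPM, and it was at 4.54 and 5.07 in siMRG15, 3.65 and 3.86 in siMRGX, 3.25 and 3.51 in siMRGBP, 6.65 and 6.37 in siBRD8 and 2.65 and 2.71 in siTIP60. No knockdown library exceeded 6.65 CPM (average change -2.05 ± 0.06; limma F test among knockdowns, adjusted p = 3.09e-07).

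The promoters of these leading lowered genes are shown in the same way, TNNT2 at chr1:201377631-201377930, minus strand, and SYT2 at chr1:202710405-202710704, minus strand, the first of 2 entries.
TNNT2: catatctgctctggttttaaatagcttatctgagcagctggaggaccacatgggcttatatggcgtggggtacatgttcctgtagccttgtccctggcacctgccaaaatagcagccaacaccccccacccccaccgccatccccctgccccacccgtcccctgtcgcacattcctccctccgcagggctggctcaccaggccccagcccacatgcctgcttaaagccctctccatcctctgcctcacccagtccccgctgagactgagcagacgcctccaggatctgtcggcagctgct
SYT2: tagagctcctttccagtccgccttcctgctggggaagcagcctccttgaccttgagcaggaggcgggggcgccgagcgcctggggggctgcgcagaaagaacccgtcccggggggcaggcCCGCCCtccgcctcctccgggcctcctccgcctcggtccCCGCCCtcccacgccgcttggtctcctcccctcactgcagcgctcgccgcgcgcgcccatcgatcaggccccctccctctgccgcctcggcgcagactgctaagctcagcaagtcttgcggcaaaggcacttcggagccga
The TNNT2 window held none of the 7 motifs as spelled, and that of SYT2 held 2 GC boxes. No match says only that these letters are not in this window.

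DNM1, the GTPase dynamin 1 that pinches off endocytic vesicles, was lowered in every knockdown. It had 135 and 119 CPM in siLuc, and 44.5 and 45.2 in siMRG15, 46.01 and 46.4 in siMRGX, 56.3 and 64.9 in siMRGBP, 62.4 and 58.1 in siBRD8 and 27.8 and 27.5 in siTIP60. The siTIP60 libraries were the lowest (-2.16 ± 0.08), and siMRGBP and siBRD8 the least lowered. FAM70A, a transmembrane protein, had 49.2 and 53.2 CPM in siLuc against a lowest, median and highest of 6.07, 12.7 and 22.6 CPM (-1.98 ± 0.06), lowest in siMRGX and highest in siMRGBP. HIST1H1A, a linker histone, had 115 and 219 CPM in siLuc and 13.5, 43.97 and 74.01 CPM in the knockdowns (-2.08 ± 0.20). Its controls differed from each other by more than the lower control did from the nearest knockdown library, and the SE is wide. Histone genes of the clusters share sequence, so reads may be split among them, and how much of their RNA a poly(A) library keeps was not tested.

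A pair of interferon-induced genes were low in all 10 libraries. IFIT1, which binds viral RNA lacking cap methylation, was at 9.96 and 11.3 CPM in siLuc and at 3.697 and 4.72 in siMRG15, 2.15 and 2.18 in siMRGX, 2.24 and 2.78 in siMRGBP, 3.397 and 3.65 in siBRD8 and 2.13 and 2.0 in siTIP60. The highest knockdown library was siMRG15 replicate 2, still below both controls; the average change was -1.61 ± 0.09. IFI44L had 2.94 and 3.24 CPM in siLuc against 0.652, 0.813 and 1.097 CPM (-1.17 ± 0.07), and its 5 changes, -1.27 to -1.06, did not differ past the threshold (limma F test adjusted p = 0.141). At such low levels the pseudocount of 1 shrinks the change.

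Secreted and surface proteins made up most of the rest. COL3A1, a fibrillar collagen chain, had 20.1 and 18.8 CPM in siLuc against a lowest, median and highest of 4.196, 5.01 and 9.58 CPM (-1.53 ± 0.07), with siMRGX lowest and siMRG15 highest. CD248, the stromal surface protein endosialin, had 3.81 and 2.95 against 0.163, 0.531 and 1.28 CPM (-1.48 ± 0.09). FAM132A, a secreted protein of the adipokine type, had 3.91 and 4.18 against 0.541, 1.15 and 1.71 CPM (-1.28 ± 0.09). The siTIP60 change was the weakest of the 5 for CD248 and FAM132A (-0.97 and -1.004). TMEM100 had 3.67 and 4.32 against 0.825, 1.19 and 2.06 CPM (-1.17 ± 0.10), and FAM110D 2.5 and 3.05 against 0.378, 0.644 and 1.03 CPM (-1.16 ± 0.09). Both were low in all libraries, and neither set of values overlapped its controls.

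**Figure D4:**
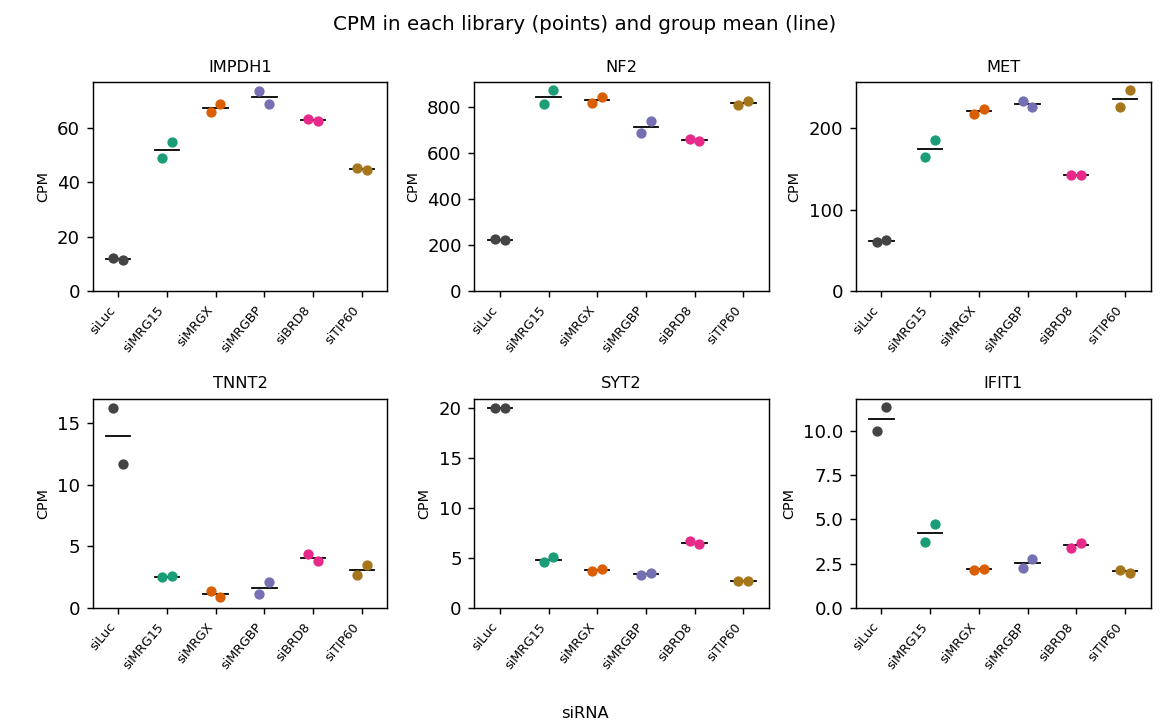
CPM of 3 raised genes (IMPDH1, NF2, MET) and 3 lowered genes (TNNT2, SYT2, IFIT1) in each of the 12 libraries (points, 2 per siRNA) with the group mean (line), on linear axes from 0. No knockdown point reaches the level of a siLuc point in any panel.

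Some one-sided genes moved almost alike in every knockdown and others mainly in a single knockdown. ARFGAP2, a GTPase activator of ARF proteins in Golgi traffic, had 30.2 and 28.7 CPM in siLuc and 55.02 to 71.5 CPM in the knockdowns, with changes of 0.94 to 1.198. The nuclear long noncoding RNA MALAT1 went from 2057 and 1968 CPM to 1204 and 1109.6 in siMRG15, 1145 and 1028 in siMRGX, 681 and 918 in siMRGBP, 1210.4 and 1164 in siBRD8 and 772 and 840.3 in siTIP60. All 10 MALAT1 values lay between 681 and 1210.4 CPM, with siMRGBP replicate 1 the lowest (average change -1.02 ± 0.09). LCORL, a DNA-binding protein, had 28.4 and 29.3 CPM against 14.3 to 18.2 CPM, and TENC1, tensin 2 of focal adhesions, had 90.6 and 70.1 against 34.5 to 51.1 CPM. Both were lowered by similar amounts throughout (-0.95 to -0.71 for LCORL).

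At the other extreme stood ANKRD13A, a ubiquitin-binding protein of endosomes. It had 13.5 and 14.1 CPM in siLuc, and 17.6 and 18.5 in siMRG15, 43.8 and 44.6 in siMRGX, 155 and 121 in siMRGBP, 40.9 and 40.2 in siBRD8 and 36.3 and 39.4 in siTIP60. Both siMRGBP libraries were far above the rest, while siMRG15 lay just above the controls (changes 3.22 and 0.36). CNTN1, the neuronal adhesion protein contactin 1, showed the same order, with 133 and 119.8 CPM in siMRGBP, 18.6 and 17.5 in siLuc and 22.1 and 24.1 in siMRG15. MAPK6, an atypical MAP kinase, was lowered chiefly in siMRG15 (38.5 and 40.3 CPM) and siTIP60 (71.2 and 77.3 CPM). Its siBRD8 values, 253 and 259 CPM, were barely under the siLuc values of 260.2 and 272 CPM. HIST1H2AK, a core histone gene, had 20.2 and 24.2 CPM in siLuc and 1.37 and 1.45 CPM in siTIP60, with the other knockdowns between. RNA28S5, a ribosomal RNA, had an average change as large as that of IMPDH1 (2.21 ± 0.52), with 10.5 and 10.7 CPM in siLuc and 56.3 and 43.96 in siMRG15, 61.2 and 190.2 in siMRGX, 11.6 and 21.7 in siMRGBP, 14.2 and 31.2 in siBRD8 and 525 and 91.3 in siTIP60. Its replicates disagreed several-fold within siMRGX and siTIP60, and in siMRGBP replicate 1 it was almost level with siLuc; how much ribosomal RNA a poly(A) library keeps was not tested.

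Genes at the edge of the rule differed little from those just outside. Just inside on the raised side, ZMYND11, a reader of methylated histone tails, had 12.1 and 11.9 CPM in siLuc and a lowest knockdown library of 12.1 CPM, and DOCK9, an activator of CDC42, 25.9 and 25.4 against 26.01 CPM. The transcript listed as RP3-410C9.1 entered with unequal controls of 4851 and 1928 CPM, against a lowest knockdown value of 4876 CPM. Just outside were TRMT1 (22.2 and 19.6 CPM against a lowest of 22.1), CTC-444N24.11 (11.8 and 13.6 against 13.6) and PDLIM4 (80.2 and 87.6 against 87.5). On the lowered side BCL2L11, the proapoptotic protein BIM, was just inside with 43.8 and 44.2 CPM and a highest knockdown library of 43.8 CPM, as were MFAP2 (90.3 and 93.1 against 90.2) and CCSAP (62.1 and 62.98 against 61.97). ATP1B1 (158 and 148 against 148 CPM), ALG9 (30.03 and 32.5 against 30.04) and TMTC3 (112 and 129 against 112) lay just outside. With a required gap of at least 1.2-fold between the nearest knockdown and control libraries, 292 genes above and 242 below were left.

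Large averages did not always mean a shared change. TRAF1, an adaptor of tumour necrosis factor receptors, averaged 1.95 ± 0.09 (limma adjusted p = 4.84e-09), yet its 2.09 and 1.76 CPM in siMRG15 lay under the 2.395 and 2.37 CPM of siLuc. It was at 37.2 and 38.8 CPM in siMRGX, 10.97 and 7.95 in siMRGBP, 10.3 and 11.1 in siBRD8 and 25.1 and 28 in siTIP60. LINC00473, a long noncoding RNA, averaged -1.76 ± 0.07 (limma adjusted p = 2.05e-09), with 7.88 and 6.84 CPM in siLuc and 16.9 and 18.5 in siMRG15, 1.12 and 0.979 in siMRGX, 0.437 and 0.393 in siMRGBP, 0.516 and 0.461 in siBRD8 and 0.20 and 0.0948 in siTIP60. It was raised in siMRG15 and lowered in the other 4 knockdowns. PXN, the focal adhesion scaffold paxillin, was one-sided: 71.7 and 63.7 CPM in siLuc and 136 and 145 in siMRG15, 283 and 286 in siMRGX, 267 and 260.4 in siMRGBP, 242 and 239 in siBRD8 and 245 and 263 in siTIP60. The siMRG15 libraries were the least raised there (average change 1.75 ± 0.05; limma F test among knockdowns, adjusted p = 5.96e-08). C21orf7 was one-sided as well, from 9.76 and 12.4 CPM in siLuc and 17.6 and 18 in siMRG15 up to 79.5 and 77.2 CPM in siTIP60 (1.75 ± 0.07).

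Secreted factors made up the remaining large negative averages. EDN2, the vasoconstrictor peptide endothelin 2, had 17.7 and 23.4 CPM in siLuc and 4.097 and 4.01 in siMRG15, 2.22 and 2.07 in siMRGX, 12.4 and 11.1 in siMRGBP, 4.55 and 4.56 in siBRD8 and 2.97 and 2.78 in siTIP60. All 10 libraries were lower, siMRGBP by the least (-0.74, against an average of -1.997 ± 0.09). OLFML3, a secreted matrix protein, had 42.2 and 45.4 CPM in siLuc against a lowest, median and highest of 6.28, 11.8 and 29.9 CPM (-1.75 ± 0.06), and TNFAIP6, a hyaluronan-binding protein induced in inflammation, 6.61 and 8.98 against 0.527, 1.71 and 4.803 CPM (-1.64 ± 0.12). The knockdown that left most transcript was siBRD8 for OLFML3 (-0.56) and siMRGBP for TNFAIP6 (-0.62).

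Of the 5 siRNA targets, MORF4L2 alone was one-sided. It had 240.2 and 298 CPM in siLuc and 157 and 158 in siMRG15, 20.3 and 19.5 in siMRGX, 206 and 175 in siMRGBP, 173 and 176 in siBRD8 and 141 and 138 in siTIP60. Besides the low level under its own siRNA, every other knockdown library was below both controls. The level of its paralogue MORF4L1 lay about that of siLuc in siMRGX and in siBRD8 (317 and 309.9 CPM, then 332 and 341 CPM, against 315 and 328 CPM). The average changes of MORF4L1 (-1.04 ± 0.05), MRGBP (-1.15 ± 0.07), BRD8 (-0.67 ± 0.06) and KAT5 (-0.50 ± 0.06) each include the knockdown aimed at that gene. Outside its own knockdown, MRGBP changed by -1.18 in siTIP60, -0.58 in siMRG15, -0.43 in siBRD8 and -0.02 in siMRGX. BRD8 changed by -0.69 in siTIP60, -0.68 in siMRGBP and -0.01 in both siMRG15 and siMRGX. MORF4L1 changed by -0.66 in siTIP60, -0.18 in siMRGBP, -0.04 in siMRGX and 0.06 in siBRD8. For KAT5 the average rested on siTIP60 (2.48 and 2.803 CPM against 19.7 and 18.8 in siLuc): without that group it was -0.01 (limma adjusted p = 0.871). A gene counts as measured where the deposited table holds it, which was so for 9 of 20 subunit genes of the TIP60 complex. Of these 9, the 5 targets included, 7 fell on average, 0 rose and 2 did not pass, with a median of -0.50. Of the 4 that were not targets, MBTD1 (-0.45) and ACTL6A (-0.22) fell and YEATS4 (0.11) and RUVBL1 (0.04) did not pass, with a median of -0.09. Among all listed genes 34.2% fell and 7.32% were one-sided below, and these counts are too small to set against such shares. Among 23 subunit genes of other MRG-containing complexes only 3 were measured. RBBP4, a histone-binding subunit of several corepressors, was one-sided. It had 161 and 175 CPM in siLuc against a lowest, median and highest of 56.4, 92.7 and 138 CPM. ARID4A, of the SIN3 deacetylase complex, fell in the average test (-0.44 ± 0.06; limma adjusted p = 4.50e-05) while siMRG15 stood above siLuc (40.8 and 43.4 against 36.8 and 38.1 CPM). C11orf30, the third, had an average of -0.21 ± 0.06 that did not pass without siMRGBP (-0.03, limma adjusted p = 0.617) or without siTIP60 (-0.14, limma adjusted p = 0.0536).

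Gene lists drawn up from textbook knowledge, with earlier results of these data known, were counted by the average test (adjusted p under 0.05 in limma, called rose or fell) and by the one-sided rule. They are set beside all listed genes, of which 30.9% rose, 34.2% fell, 6.54% were one-sided above and 7.32% below, with a median average change of -0.02. The counts for each knockdown stand beside the shares of all listed genes called higher and lower against siLuc. These were 33.5% and 35.8% in siMRG15, 28.2% and 40.0% in siMRGX and 32.1% and 32.9% in siMRGBP. In siBRD8 they were 28.3% and 25.9%, and in siTIP60 41.1% and 37.7%. No list was tested as a set. Measured members are those in the deposited table, which held only part of most lists, so the counts do not describe whole pathways. For oxidative phosphorylation 5 of 40 genes were measured, and for RNA interference 7 of 19. Because an average can rest on a few knockdowns, the calls against siLuc are given for each of them. The larger shifts on leaving out a knockdown or a siLuc library are named. Leaving any out loosens the one-sided rule for all 8808 genes, of which 576 were above and 645 below. Those numbers became 845 and 1030 without siLuc replicate 1 and 706 and 857 without siLuc replicate 2. They became 964 and 1012 without siMRG15, 856 and 831 without siMRGX and 718 and 829 without siMRGBP. Without siBRD8 they were 654 and 815, and without siTIP60 715 and 900. With a gap of at least 1.2-fold, 2 of the one-sided mitosis genes, 0 replication genes and 0 histone genes were left, and 2 p53 and 1 NF-kB targets. Of all 8808 listed genes, 292 above and 242 below were left with that gap. Of 32 measured mitosis genes, 0 rose, 31 fell and 1 did not pass, 0 were one-sided above and 11 below, and the median average change was -0.47. Mitosis genes called higher and lower numbered 1 and 21 in siMRG15, 2 and 11 in siMRGX, 0 and 23 in siMRGBP, 3 and 13 in siBRD8 and 0 and 32 in siTIP60. CCNA2, cyclin A2, had 242 and 253 CPM in siLuc and 138 and 141 in siMRG15, 227 and 219 in siMRGX, 171 and 159 in siMRGBP, 155 and 159.7 in siBRD8 and 47.3 and 47.8 in siTIP60. The siTIP60 libraries were by far the lowest and siMRGX barely under the controls. FOXM1, the transcription factor of mitotic genes, had 658 and 701 CPM in siLuc, 224 and 219.9 in siMRGBP and 228 and 236 in siTIP60, with the other 6 libraries between 473 and 511 CPM. CDC20, the activator of the anaphase-promoting complex, and AURKA, a spindle kinase, averaged -0.87 ± 0.05 and -0.75 ± 0.05, with siTIP60 at -2.05 and -2.01. Leaving siTIP60 out, 22 of the 32 fell, 0 rose and the median was -0.22. With the libraries rescaled by TMM or median-of-ratios factors, 7 and 8 rather than 11 were one-sided, CCNA2 and AURKA not among them, while 31 and 30 still fell on average.

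Of 32 measured DNA replication genes, 1 rose, 24 fell and 7 did not pass, 0 were one-sided above and 3 below, and the median average change was -0.23. Replication genes called higher and lower numbered 8 and 12 in siMRG15, 13 and 10 in siMRGX, 2 and 25 in siMRGBP, 11 and 4 in siBRD8 and 0 and 31 in siTIP60. For replication genes, 6 were one-sided below without siLuc replicate 2, and 6 were one-sided below without siBRD8. The one-sided members were GINS4, of the replicative helicase, with 54.7 and 53.3 CPM in siLuc and 18.96 and 18.7 in siTIP60, RFC5, of the clamp loader, with 69.01 and 77.4 and 31.1 and 31.3, and ORC1, of the origin recognition complex, with 53.5 and 46.3 and 15.9 and 16.2. In the other 8 libraries GINS4 lay at 30.96 to 50.1 CPM, nearer the controls than siTIP60. CDC6, which loads the helicase at origins, fell on average (-0.67 ± 0.05; limma adjusted p = 1.33e-07) but was above siLuc in siBRD8 (155 and 158 against 132 and 129.8 CPM). Without siTIP60, 8 replication genes fell and 4 rose, with a median of -0.03. RFC5 was not one-sided with either rescaling, nor ORC1 with median-of-ratios factors. Of 13 measured histone genes, 1 rose, 11 fell and 1 did not pass, 0 were one-sided above and 4 below, and the median average change was -0.58. Histone genes called higher and lower numbered 1 and 8 in siMRG15, 1 and 6 in siMRGX, 1 and 11 in siMRGBP, 3 and 2 in siBRD8 and 0 and 12 in siTIP60. For histone genes, 7 were one-sided below without siLuc replicate 1, 1 rose and 7 fell without siLuc replicate 2, and 7 were one-sided below without siBRD8. With TMM factors HIST1H2BD was not one-sided, nor with median-of-ratios factors HIST1H2BC and HIST1H2BD. HIST1H2AC had 245 and 325 CPM in siLuc against a lowest, median and highest of 82.8, 156 and 241 CPM, HIST1H2BC 242 and 265 against 91.4, 160.2 and 215, and HIST1H2BD 218 and 217 against 87.4, 189 and 201 CPM. HIST2H2AA3, the fourth, averaged -0.58 ± 0.15 at a mean of 0.592 CPM; it is named because it completes the count. The nearest siBRD8 values were just under the controls for HIST1H2AC and HIST1H2BD, and sequence shared within the clusters makes single members uncertain. How much clustered histone RNA a poly(A) library keeps was not tested, so these levels may not follow total histone mRNA. H2AFX, the variant phosphorylated at DNA breaks, averaged -1.01 ± 0.08 (limma adjusted p = 3.06e-07), but in siMRGX and siBRD8 it lay between the controls (255 and 266 CPM, then 265 and 267 CPM, against 308 and 229 CPM). The changes were carried by siMRGBP, siTIP60 and siMRG15 (-2.52, -2.12 and -0.40).

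Of 18 measured p53 targets, 12 rose, 0 fell and 6 did not pass, 5 were one-sided above and 0 below, and the median average change was 0.24. The p53 targets called higher and lower numbered 15 and 1 in siMRG15, 7 and 8 in siMRGX, 10 and 4 in siMRGBP, 14 and 0 in siBRD8 and 9 and 5 in siTIP60. For p53 targets, the median was 0.10 without siMRG15, the median was 0.40 without siMRGX, the median was 0.40 without siMRGBP, and the median was 0.41 without siTIP60. Without siMRG15, 9 of them rose and 6 fell. SESN2, a stress-induced inhibitor of mTOR signalling that the integrated stress response also induces, had 55.1 and 55.9 CPM in siLuc, and 142 and 158 in siMRG15, 125 and 129 in siMRGX, 71.3 and 71.98 in siMRGBP, 148.9 and 153 in siBRD8 and 163 and 169.7 in siTIP60. The siMRGBP libraries stood apart as the least raised. TNFRSF10B, a death receptor for TRAIL, had 87.9 and 84.98 CPM against a lowest, median and highest of 113, 141 and 192 CPM, here with siMRGBP the highest. TP53INP1, a proapoptotic p53 cofactor, had 22.3 and 25.6 against 25.9, 57.7 and 78.5 CPM, and the secreted stress cytokine GDF15 3.94 and 3.66 against 4.098, 8.04 and 15.7 CPM. BBC3, the proapoptotic protein PUMA, completes the 5 with an average of 0.72 ± 0.11, weakest in siMRGBP (0.40) and strongest in siMRG15 (1.12). Counts by TMM or median-of-ratios factors were 12 and 13 raised and 5 one-sided in each.

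Genes of the integrated stress and unfolded protein responses rose more often than they fell on average, but not in siMRG15. Of 17 measured members, 13 rose, 3 fell and 1 did not pass, 3 were one-sided above and 1 below, and the median average change was 0.27. Stress response members called higher and lower numbered 4 and 12 in siMRG15, 12 and 3 in siMRGX, 10 and 4 in siMRGBP, 11 and 1 in siBRD8 and 14 and 3 in siTIP60. For stress response members, 9 were one-sided above and the median was 0.47 without siMRG15, and 8 rose and 3 fell and the median was 0.06 without siTIP60. ASNS, asparagine synthetase, had 57.5 and 68.96 CPM in siLuc, and 108 and 112 in siMRG15, 167 and 167 in siMRGX, 117 and 122 in siMRGBP, 152 and 155 in siBRD8 and 302 and 279.5 in siTIP60. The siTIP60 libraries were the highest and every knockdown exceeded both controls (1.31 ± 0.06; limma F test among knockdowns, adjusted p = 1.10e-08). ERN1, the endoplasmic reticulum stress sensor kinase, had 7.28 and 5.87 CPM against a lowest, median and highest of 8.12, 12.4 and 15.4 CPM. HSP90B1, the chaperone of the endoplasmic reticulum, was one-sided below, with 701 and 749 CPM in siLuc, 305 and 368 in siTIP60 and 317 and 372 in siMRG15, but 690.2 and 683 CPM in siBRD8, close under the controls. The members that fell, HSP90B1, HSPA5 and DNAJB9, encode chaperones or co-chaperones of that compartment, whereas ASNS and SESN2 belong to the amino acid branch. ERN1, a sensor of the same compartment, was one-sided above, and a split of the list by branch was not tested. The pair HSPA5 and DNAJB9 was named after its values were seen (averages of -0.63 ± 0.08 and -0.54 ± 0.06).

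NF-kB target genes had the highest median of the lists, with siMRG15 going the other way. Of 18 measured targets, 14 rose, 1 fell and 3 did not pass, 3 were one-sided above and 0 below, and the median average change was 0.69. NF-kB targets called higher and lower numbered 3 and 8 in siMRG15, 15 and 1 in siMRGX, 15 and 1 in siMRGBP, 10 and 2 in siBRD8 and 16 and 1 in siTIP60. For NF-kB targets, 5 were one-sided above without siLuc replicate 1, 10 were one-sided above without siMRG15, and the median was 0.37 without siTIP60. RELB, a subunit of NF-kB itself, had 12.5 and 9.3 CPM in siLuc against a lowest, median and highest of 12.9, 18.8 and 37.5 CPM, TNFAIP3, an inhibitor of the pathway, 11.9 and 10.7 against 15.8, 26.5 and 46.9, and SOD2, the mitochondrial superoxide dismutase, 49.7 and 43.5 against 56.2, 77.3 and 107 CPM. In each of the 3 the siMRG15 libraries were the least raised or among the least raised, and the siMRG15 changes were 0.28, 0.49 and 0.33. The difference among knockdowns passed the F test for each (adjusted p = 1.33e-07, 1.79e-06 and 2.39e-07). Interferon-stimulated and double-stranded RNA response genes went both ways. Of 22 measured members, 8 rose, 6 fell and 8 did not pass, 2 were one-sided above and 2 below, and the median average change was 0.14. Interferon response members called higher and lower numbered 9 and 6 in siMRG15, 6 and 11 in siMRGX, 10 and 7 in siMRGBP, 6 and 8 in siBRD8 and 11 and 6 in siTIP60. For interferon response members, 4 were one-sided above without siMRG15, and 4 were one-sided below without siTIP60. The sensors IFIH1, of double-stranded RNA, and IFI16, of DNA, were above in all libraries: IFIH1 had 2.16 and 1.94 CPM in siLuc against a lowest, median and highest of 3.82, 5.21 and 7.18 CPM, and IFI16 35.6 and 34.2 against 40.6, 47.8 and 78.4 CPM. The effectors IFIT1 and IFI44L, given earlier, were the ones below. Every group received an siRNA, siLuc included, and no untreated cells were among the groups, so a response to the siRNA itself was not tested. Of 7 measured genes of RNA interference, 5 rose, 2 fell and 0 did not pass, 3 were one-sided above and 0 below, and the median average change was 0.28. RNA interference genes called higher and lower numbered 5 and 1 in siMRG15, 6 and 0 in siMRGX, 4 and 3 in siMRGBP, 4 and 1 in siBRD8 and 3 and 3 in siTIP60. For RNA interference genes, the median was 0.50 without siMRGBP. EIF2C2 and EIF2C4, the Argonaute proteins that hold small RNAs, had 196 and 157 CPM against 199, 259.5 and 364 CPM and 5.82 and 5.53 against 9.81, 13.8 and 16.4 CPM (lowest, median and highest). RAN, the GTPase of nuclear transport, had 372 and 439 against 462, 717 and 954 CPM, and was not one-sided with TMM factors.

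Matrix genes and collagens fell more often than they rose on average, but not in siTIP60. Of 24 measured matrix and TGF-beta response genes, 5 rose, 14 fell and 5 did not pass, 0 were one-sided above and 4 below, and the median average change was -0.33. Matrix genes called higher and lower numbered 2 and 15 in siMRG15, 0 and 17 in siMRGX, 8 and 10 in siMRGBP, 7 and 11 in siBRD8 and 10 and 7 in siTIP60. For matrix genes, 7 were one-sided below without siLuc replicate 2, the median was -0.12 without siMRG15, and 7 were one-sided below without siTIP60. LOX, which cross-links collagen, had 111 and 99.1 CPM in siLuc, and 32.9 and 34.2 in siMRG15, 43.6 and 43.4 in siMRGX, 75.9 and 78.1 in siMRGBP, 36.2 and 37.1 in siBRD8 and 55.1 and 56.8 in siTIP60. The siMRGBP libraries were nearest the controls (-0.44 ± 0.06, against an average of -1.14 ± 0.05). COL1A1, the main collagen of bone, had 2334 and 1811 CPM in siLuc against a lowest, median and highest of 963, 1551 and 1754 CPM (-0.56 ± 0.10). The controls of COL1A1 differed, the lower one was close to the siMRG15 values, and with TMM factors the gene was no longer one-sided. BGN, the proteoglycan biglycan, completes the 4 with COL3A1 and averaged -0.79 ± 0.08 at a mean of 0.402 CPM. COL4A1, of basement membranes, fell on average (-0.60 ± 0.05; limma adjusted p = 5.97e-07) but was above siLuc in siTIP60 (449 and 453 against 387 and 383 CPM). Of 28 measured genes of focal adhesions and actin, 14 rose, 8 fell and 6 did not pass, 2 were one-sided above and 0 below, and the median average change was 0.20. Adhesion and actin genes called higher and lower numbered 5 and 17 in siMRG15, 6 and 8 in siMRGX, 22 and 2 in siMRGBP, 11 and 5 in siBRD8 and 14 and 8 in siTIP60. For adhesion and actin genes, 4 were one-sided above without siLuc replicate 1, 9 rose and 8 fell and the median was 0.07 without siLuc replicate 2, 4 were one-sided above and the median was 0.32 without siMRG15, 5 were one-sided below and the median was 0.01 without siMRGBP, and the median was 0.10 without siTIP60. The split of 14 against 8 thus depended on siMRGBP, without which 10 rose and 11 fell. FERMT1, a kindlin of integrin activation, was one-sided beside PXN, with 11.7 and 13.2 CPM against 16.2, 17.7 and 29.2 CPM. MYLK, myosin light chain kinase, rose on average (1.15 ± 0.06; limma adjusted p = 1.65e-08) with siMRGX level with or under the controls (55.2 and 59.04 against 63.1 and 58.9 CPM). LCP1, an actin bundler, averaged 0.85 ± 0.08 from opposite changes, -1.98 in siMRG15 and 3.18 in siMRGBP. Of 13 measured sarcomere genes, 5 rose, 4 fell and 4 did not pass, 0 were one-sided above and 1 below, and the median average change was 0.10. Sarcomere genes called higher and lower numbered 1 and 7 in siMRG15, 2 and 6 in siMRGX, 6 and 4 in siMRGBP, 4 and 3 in siBRD8 and 9 and 3 in siTIP60. For sarcomere genes, the median was -0.02 without siLuc replicate 2, 3 were one-sided above without siMRG15, the median was -0.05 without siMRGBP, the median was 0.00 without siBRD8, and 4 were one-sided below and the median was -0.05 without siTIP60. Apart from TNNT2, the members with the smallest p, ANKRD1 (1.39 ± 0.06), MYOM1 (1.18 ± 0.07) and TPM1 (-0.46 ± 0.06), each overlapped or crossed the controls in at least 1 knockdown.

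Of 15 measured enzymes of purine, pyrimidine and folate metabolism, 7 rose, 6 fell and 2 did not pass, 3 were one-sided above and 1 below, and the median average change was 0.09. Metabolic enzymes called higher and lower numbered 5 and 6 in siMRG15, 9 and 4 in siMRGX, 8 and 4 in siMRGBP, 6 and 3 in siBRD8 and 9 and 6 in siTIP60. For metabolic enzymes, the median was 0.27 without siMRG15, the median was -0.07 without siMRGBP, and 4 rose and 3 fell without siTIP60. Beside IMPDH1 and ADA, SHMT2, the mitochondrial serine hydroxymethyltransferase, was above in all libraries, with 132 and 114 CPM in siLuc and 146, 159.7 and 249.95 CPM (lowest, median and highest). Of 27 measured genes of synaptic vesicles and exocytosis, 9 rose, 13 fell and 5 did not pass, 2 were one-sided above and 3 below, and the median average change was -0.21. Vesicle genes called higher and lower numbered 14 and 9 in siMRG15, 5 and 19 in siMRGX, 10 and 12 in siMRGBP, 5 and 14 in siBRD8 and 13 and 7 in siTIP60. For vesicle genes, 5 were one-sided below without siMRG15, and the median was -0.08 without siMRGX. SYT11 had 56.4 and 63.1 CPM against a lowest, median and highest of 13.2, 34.5 and 42.8 CPM, with siMRGX lowest, and SYT12 12.5 and 9.53 against 1.33, 4.0 and 9.02 CPM, also with siMRGX lowest. The raised members were CPLX1, complexin 1, with 0.325 and 0.222 against 0.515, 1.16 and 2.41 CPM, and SYN2, a synapsin, with an average of 0.59 ± 0.06. Of 11 measured subunits of SWI/SNF and INO80 remodellers, 3 rose, 4 fell and 4 did not pass, 2 were one-sided above and 1 below, and the median average change was -0.09. Remodeller subunits called higher and lower numbered 4 and 4 in siMRG15, 6 and 2 in siMRGX, 4 and 2 in siMRGBP, 7 and 1 in siBRD8 and 4 and 7 in siTIP60. For remodeller subunits, 5 rose and 2 fell and the median was 0.13 without siTIP60. BCL7A, a SWI/SNF subunit, had 6.47 and 5.32 CPM in siLuc and 16.5 and 18.5 in siMRG15, 29.5 and 31.2 in siMRGX, 14.1 and 13.1 in siMRGBP, 18.4 and 19.4 in siBRD8 and 15.3 and 16.5 in siTIP60. It was raised most in siMRGX (2.19; average 1.51 ± 0.07). INO80C had 4.24 and 5.17 against 5.41, 6.78 and 14.3 CPM, and SMARCD3, another SWI/SNF subunit, 13.2 and 10.9 against 5.42, 8.43 and 10.4 CPM, not one-sided with either rescaling. DPF3, a histone-reading SWI/SNF subunit, rose on average (1.74 ± 0.10; limma adjusted p = 3.18e-08) but siMRG15 lay between the controls (5.29 and 5.27 against 4.26 and 5.95 CPM).

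**Figure D5:**
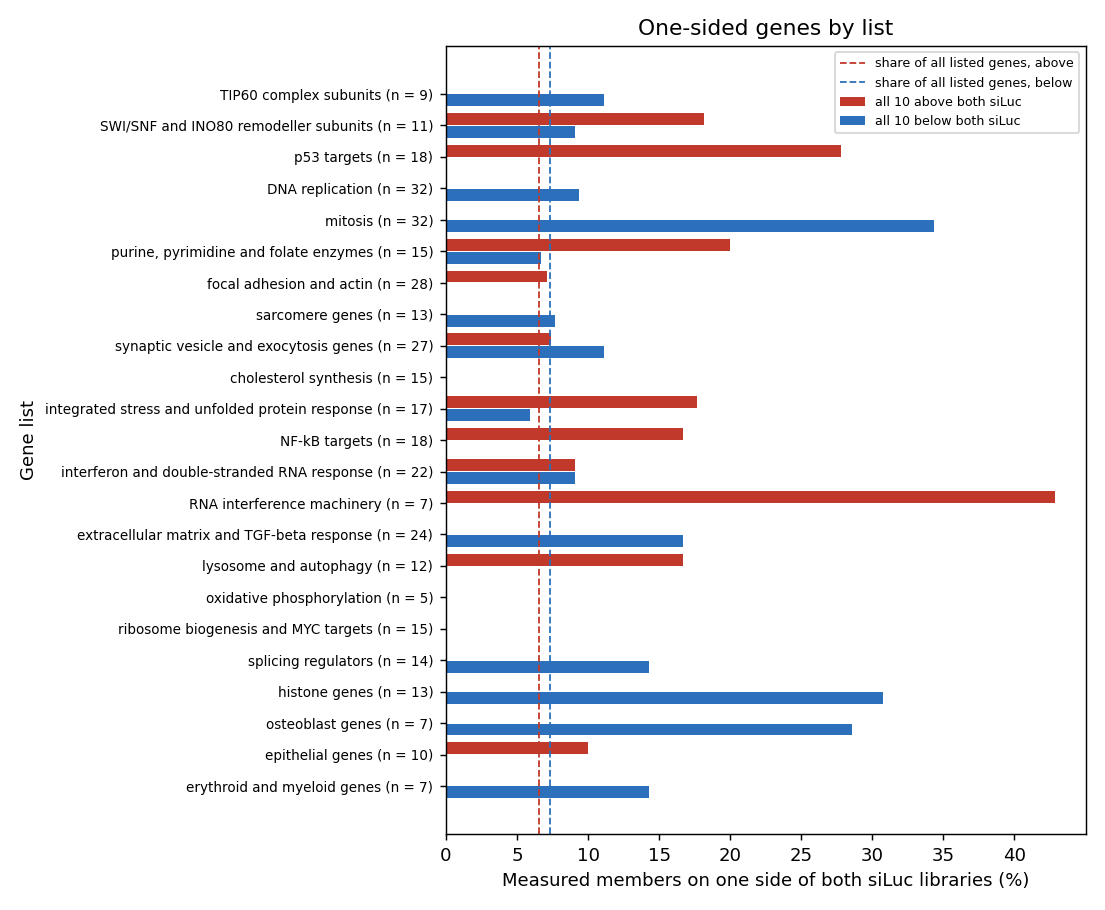
Percent of each list's measured members with all 10 knockdown libraries above (red) or below (blue) both siLuc libraries, for the lists with at least 5 measured members (n in brackets); dashed lines mark the shares among all listed genes, 6.54 and 7.32%. The longest blue bar is mitosis, 11 of 32, and the longest red bar is RNA interference, 3 of 7.

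Other lists held at most 2 one-sided genes each. For splicing regulators this was 14.3% below, beside 7.32% of all listed genes. For lysosome and autophagy genes it was 16.7% above, beside 6.54%. Of 14 measured splicing regulators, 1 rose, 10 fell and 3 did not pass, 0 were one-sided above and 2 below, and the median average change was -0.36. Splicing regulators called higher and lower numbered 0 and 10 in siMRG15, 6 and 3 in siMRGX, 2 and 7 in siMRGBP, 3 and 5 in siBRD8 and 1 and 12 in siTIP60. For splicing regulators, 5 were one-sided below without siLuc replicate 1, the median was -0.23 without siLuc replicate 2, 4 were one-sided below without siMRGX, and the median was -0.20 without siTIP60. MBNL2, a muscleblind protein, had 74.7 and 69.8 CPM against a lowest, median and highest of 33.8, 49.5 and 63.5 CPM, and the neuronal regulator NOVA1 15.7 and 16.7 against 6.69, 13.2 and 14.7 CPM. PTBP2 fell on average (-0.66 ± 0.05; limma adjusted p = 1.32e-07) but was far above siLuc in siMRGBP (179 and 163 against 66.95 and 69.8 CPM), and MBNL1 (-0.54 ± 0.05) was above it in siMRGX (384 and 374 against 256 and 276 CPM). Of 12 measured lysosome and autophagy genes, 4 rose, 2 fell and 6 did not pass, 2 were one-sided above and 0 below, and the median average change was 0.10. Lysosome and autophagy genes called higher and lower numbered 8 and 4 in siMRG15, 7 and 2 in siMRGX, 3 and 6 in siMRGBP, 5 and 3 in siBRD8 and 8 and 3 in siTIP60. For lysosome and autophagy genes, the median was 0.00 without siLuc replicate 2. ATP6V0D1, of the proton pump, had 21.5 and 18.4 against 29.5, 38.3 and 49.6 CPM, and UVRAG, which promotes autophagosome formation, 15.3 and 13.9 against 21.7, 28.7 and 35.6 CPM. Of 15 measured cholesterol synthesis genes, 6 rose, 1 fell and 8 did not pass, 0 were one-sided above and 0 below, and the median average change was 0.11. Cholesterol synthesis genes called higher and lower numbered 2 and 12 in siMRG15, 13 and 1 in siMRGX, 8 and 1 in siMRGBP, 6 and 2 in siBRD8 and 11 and 0 in siTIP60. For cholesterol synthesis genes, 12 rose and 0 fell, 4 were one-sided above and the median was 0.34 without siMRG15. HMGCS1 (0.31 ± 0.05), INSIG1 (0.34 ± 0.06) and DHCR7 (0.25 ± 0.05) averaged above siLuc although all 3 were lower in siMRG15 (-0.73, -0.78 and -0.80), and SREBF2, the regulator of the pathway, averaged 0.47 ± 0.06. The DHCR7 average did not pass without siMRGX (0.11, limma adjusted p = 0.104). Of 15 measured genes of MYC and ribosome biogenesis, 6 rose, 4 fell and 5 did not pass, 0 were one-sided above and 0 below, and the median average change was 0.06. Ribosome biogenesis genes called higher and lower numbered 2 and 10 in siMRG15, 11 and 1 in siMRGX, 7 and 4 in siMRGBP, 7 and 1 in siBRD8 and 6 and 6 in siTIP60. For ribosome biogenesis genes, 4 were one-sided above and the median was 0.23 without siMRG15, and the median was -0.04 without siMRGX. MYC averaged 0.66 ± 0.06, raised in siMRGX (404 and 418 CPM) and siBRD8 (397 and 369.6 CPM) and not in siMRG15 (146 and 159 CPM, against 183 and 161 in siLuc). Of 5 measured oxidative phosphorylation genes, 0 rose, 4 fell and 1 did not pass, 0 were one-sided above and 0 below, and the median average change was -0.26. Respiratory chain genes called higher and lower numbered 1 and 1 in siMRG15, 1 and 1 in siMRGX, 0 and 4 in siMRGBP, 0 and 1 in siBRD8 and 0 and 4 in siTIP60. For respiratory chain genes, 0 rose and 2 fell without siLuc replicate 2. NDUFA4 averaged -1.38 ± 0.15 from siMRGBP (-2.91) and siTIP60 (-2.92), with controls of 159 and 273 CPM, and the average of NDUFB5 (-0.25 ± 0.06) rested on siBRD8, without which it was 0.00 (limma adjusted p = 0.97).

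The labels call U2OS epithelial cells from osteosarcoma. Of 7 measured osteoblast genes, 2 rose, 3 fell and 2 did not pass, 0 were one-sided above and 2 below, and the median average change was -0.15. Osteoblast genes called higher and lower numbered 0 and 5 in siMRG15, 2 and 4 in siMRGX, 2 and 3 in siMRGBP, 2 and 3 in siBRD8 and 4 and 2 in siTIP60. For osteoblast genes, the median was 0.08 without siMRG15, the median was -0.27 without siMRGX, and 1 rose and 5 fell and the median was -0.31 without siTIP60. BMP4, a bone-forming ligand, had 75.7 and 70.9 CPM in siLuc against a lowest, median and highest of 20.4, 49.9 and 64.6 CPM and was one-sided beside COL1A1. RUNX2, the osteoblast transcription factor, was present in all libraries (44.5 and 45.3 CPM in siLuc), and its average of 0.18 ± 0.05 turned to -0.13 (limma adjusted p = 0.0482) without siTIP60. ALPL, alkaline phosphatase, rose on average (1.02 ± 0.08; limma adjusted p = 2.35e-07) but was lower in siMRG15 (-0.80). Of 10 measured epithelial genes, 5 rose, 2 fell and 3 did not pass, 1 was one-sided above and 0 below, and the median average change was 0.16. Epithelial genes called higher and lower numbered 1 and 7 in siMRG15, 2 and 5 in siMRGX, 8 and 1 in siMRGBP, 5 and 2 in siBRD8 and 9 and 0 in siTIP60. For epithelial genes, the median was 0.40 without siLuc replicate 1, the median was 0.01 without siLuc replicate 2, 3 were one-sided above and the median was 0.30 without siMRG15, the median was 0.26 without siMRGX, and the median was 0.06 without siTIP60. PVRL4, a nectin, was the one-sided member, with 8.89 and 8.63 CPM in siLuc, 46.8 and 46.8 in siMRG15 and 10.6 and 9.57 in siTIP60. CDH1, E-cadherin, was low in siLuc (2.17 and 1.97 CPM), lower still in siMRG15 (1.25 and 1.401 CPM) and highest in siTIP60 (15.7 and 15.2 CPM). Of 7 measured erythroid and myeloid genes, 1 rose, 3 fell and 3 did not pass, 0 were one-sided above and 1 below, and the median average change was 0.13. Erythroid and myeloid genes called higher and lower numbered 0 and 2 in siMRG15, 0 and 3 in siMRGX, 1 and 3 in siMRGBP, 1 and 2 in siBRD8 and 5 and 2 in siTIP60. For erythroid and myeloid genes, the median was -0.21 without siTIP60. EPOR, the erythropoietin receptor, was the member below (5.403 and 4.56 CPM against 1.68, 3.47 and 4.22 CPM), and CD33 (0.18 ± 0.07; limma adjusted p = 0.0406) lost its call under 11 of the settings tried. The median of this list was also -0.03 by edgeR and -0.53 with a mean of at least 5 CPM.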

How the data were processed

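RNA-seq libraries of U2OS cells, 2 for each of 6 siRNAs, were analysed. The authors deposited CPM values per gene and library. Per the submitters' processing notes the tools named were Bowtie2 2.1.6, MACS2 2.0.10, Subread 2.0.0 with featureCounts, and minimap2 2.17-r941, with build hg19 and no role or order. The sources used here do not give how genes were selected or whether counting used strand.

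Of 8813 rows, 5 repeated the values of another and were removed, which left 8808 genes. The table pads 15 of these names with a space, and its values for SEPT2 and SEPT9 are the same, so names so padded were taken as re-entered; their genes were tested, and SEPT8 alone is described, after its values were seen. Names matched RefSeq (GRCh38.p14) in 7318 cases. In every library 100% of values were whole multiples of 1 read (tolerance 0.01 reads), with the size of 1 read taken from the gaps between neighbouring values; this gave the library sizes.

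The main test was limma 3.58.1 with an intensity trend (R 4.3.3) on log2(CPM + 1), 6 group means fitted to 12 libraries with 6 residual degrees of freedom, no replicate block and no filter. The Benjamini-Hochberg adjustment of the two-sided p-values covered 8808 genes, and the threshold was 0.05. The scripts were tested on simulated counts. Alternatives were edgeR 4.0.16 on the recovered reads, pseudocounts of 0.1 and 5, TMM and median-of-ratios factors, a mean of at least 5 CPM, a gap of 1.2-fold, a replicate block, and leaving out each library or knockdown.

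Named genes, with a mean of at least 1 CPM, were the 5 targets, the 12 one-sided genes each way with the largest weakest change, the 4 largest remaining averages each way, up to 4 members of each of 24 lists, the 3 most and 3 least even one-sided genes each way, and the 3 nearest either side of the rule each way. The last 2 kinds needed a mean of at least 10 CPM. A single further gene that met this rule is not reported here. The members and lists were chosen with earlier results of these data known. Same-numbered replicates showed no common direction: the correlation of their deviations from group means was -0.47 to 0.18 over 15 pairs of groups. The value of -0.47 was that of siLuc with siMRGBP, so variation shared between these groups under other numbering was not excluded.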

Additional observations from a re-analysis of the deposited data

Results flagged for a closer look

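The 5 changes of the long noncoding RNA LINC00473 spanned 4.02 on the log2(CPM + 1) scale, being raised in both siMRG15 libraries and lowered in all libraries of the other 4 knockdowns (limma F test among knockdowns, adjusted p = 1.4e-11).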

How the results depend on the processing

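With TMM or median-of-ratios factors all 24 leading one-sided genes kept their side. Most other settings could not have moved them. Pseudocounts, the replicate block and edgeR leave the compared CPM values as they are, and leaving out libraries or knockdowns only loosens the rule. The required gap favours genes chosen, as these were, by their weakest change. With a mean of at least 5 CPM, 4915 genes remained to be tested, and fewer passed accordingly: 3672 in the average test (1605 higher), 4897 in the F test, and 377 one-sided below. Leaving out siMRG15 gave 964 genes above and 1012 below, and a required gap of 1.2-fold 292 and 242. Leaving out each library gave 4967 to 5895 average calls (2269 to 2834 higher, 2698 to 3092 lower), 8520 to 8684 F calls, 584 to 845 genes above and 657 to 1030 below, most without siLuc replicate 1, where 1 control remains to be exceeded. Calls against siLuc without 1 of its libraries were 5697 to 6078 for siMRG15, 5655 to 5852 for siMRGX, 5538 to 5571 for siMRGBP, 4341 to 4784 for siBRD8 and 6562 to 6814 for siTIP60. A lone library was assumed to vary like the other groups. With median-of-ratios factors the siMRGX median over listed genes was 0.00 in place of -0.10, with 637 above and 564 below, of which 567 and 537 were shared; TMM factors gave 626 and 566, with 559 and 533 shared. By edgeR on recovered reads 5635 genes passed (2427 higher, 3208 lower). A pair of averages changed sign: NDUFB5 (-0.25) to 0.0029 without siBRD8 and RUNX2 (0.18) to -0.13 without siTIP60. The replicate numbers showed no pairing common to all groups. With a replicate block 5634 genes passed the average test and 8583 the F test.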
